A study of Mus musculus with 11 samples.

Results

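NF-kB is a family of transcription factors that T cells switch on when their antigen receptor, CD28 or a TNF receptor is engaged. Its Rel subunits are held in the cytoplasm by inhibitory IkB proteins until IkB kinase marks those proteins for destruction. Many genes that nuclear NF-kB induces encode its own inhibitors, among them Nfkbia and Tnfaip3, which is how the pathway switches itself off again.

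The 10 genes described were taken by name, out of 19937 genes measured: the cytokine Tnf, the surface glycoprotein Cd83, the NF-kB subunits Rel, Rela, Relb and Nfkb2, the IkB inhibitors Nfkbia and Nfkbie, the ubiquitin-editing inhibitor Tnfaip3, and the TNF receptor adaptor Traf1. Each was represented by 1 row annotated to that symbol alone, so no choice between rows arose, and all 10 entered every test because no filter on dim rows was applied. RNA of splenic T cells was hybridised to 11 Affymetrix Mouse Gene 1.0 ST arrays. Exponential-phase leukemias (n = 5 arrays) came from Lckpr-TCL1A+/- mice of 15 months on average with over 80% tumor cells in blood, over 90% in spleen and a lymphocyte doubling time of 12 days (SEM 0.8), chronic-phase leukemias (n = 3) from Lckpr-TCL1A+/- mice of 12 months on average with 30 to 70% tumor cells, and the wild-type arrays (n = 3) from age-matched C57BL/6 mice.

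All leukemic mice were hemizygous for a human TCL1A transgene driven by the proximal Lck promoter, which acts in T cells from the thymus on, and the leukemic cells were enriched as CD8+ cells. Wild-type cells were purified as CD3+ pan T cells, and each wild-type array pooled 3 mice, 9 in all. Genotype, cell selection and pooling therefore cannot be told apart in any comparison with wild type, and an average over 3 pooled mice varies less than 3 single mice would. Neither the labels nor the methods say that each leukemia array was 1 mouse, so the p-values below measure the spread between these arrays. In such bulk RNA, fewer cells of a type and less RNA per cell cannot be told apart.

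The markers of the labelled cells were looked at first. The CD3 genes Cd3d, Cd3e and Cd3g were high on every array, and the median over the 7 measured pan T-cell markers lay between log2 7.17 and 7.46 in exponential leukemias, 6.57 and 7.47 in chronic leukemias and 6.90 and 7.58 in wild type. Exponential replicate 4 went against its CD8 label: Cd8a read 2.96 there and Cd8b1 4.33, while Cd4 read 5.18. On the other 4 exponential arrays Cd8a lay between 7.94 and 8.20. The exponential differences of the 10 genes from wild type are accordingly given with and without that array. Among markers of other cells, 10 of 11 myeloid markers had a positive difference in exponential leukemias against wild type, and 1 was called higher (background 0.135% of all genes). The macrophage lysozyme gene Lyz2 read between 4.84 and 6.36 in exponential, 2.13 and 3.62 in chronic and 2.35 and 3.31 in wild-type arrays. Over all genes, 48.3% had a negative difference from wild type in exponential and 50.3% in chronic leukemias. All 5 plasma-cell markers had a negative difference in both phases, at a median of -1.10 in exponential and -0.39 in chronic leukemias, and none was called. Of 5 erythroid markers 1 was called lower in exponential leukemias (background 0.281% of all genes), and no NK-cell marker was called in either phase. The part of these cells in the values below was not tested. The human transgene itself was not analysed here.

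To place the genes against their own regulation, the 250 bases upstream of the annotated RefSeq start were read (assembly GRCm38.p6) and searched on both strands for the kappa-B consensus, the 10-base site that NF-kB dimers bind. Windows were found for 8 of the 10 genes, Cd83 and Relb being named only, and 5 of the 8 held at least 1 match: Tnfaip3, Rel, Nfkbia, Nfkbie and Nfkb2. These 8 genes had 11 windows, as some have several annotated starts, and 7 of the 11 held a match. Over all genes with a window, 8.23% of 27025 held a match, and over all windows 7.25% of 32851. The windows of the 4 genes whose values run closest to each other are printed 5′ to 3′, with matches to the consensus on either strand in capitals.

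Tnfaip3, chr10:19015411-19015660, minus strand: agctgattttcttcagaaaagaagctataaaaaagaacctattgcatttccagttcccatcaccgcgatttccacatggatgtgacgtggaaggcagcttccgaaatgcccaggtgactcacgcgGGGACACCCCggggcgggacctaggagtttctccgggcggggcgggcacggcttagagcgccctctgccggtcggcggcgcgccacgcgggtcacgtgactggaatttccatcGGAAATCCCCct

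Nfkbia, chr12:55492648-55492897, minus strand: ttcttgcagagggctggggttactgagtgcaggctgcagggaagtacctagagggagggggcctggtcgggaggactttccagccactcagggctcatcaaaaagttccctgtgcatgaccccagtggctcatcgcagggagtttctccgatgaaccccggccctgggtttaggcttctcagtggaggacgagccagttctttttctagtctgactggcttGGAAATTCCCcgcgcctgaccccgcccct

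Rel, chr11:23770970-23771219, minus strand: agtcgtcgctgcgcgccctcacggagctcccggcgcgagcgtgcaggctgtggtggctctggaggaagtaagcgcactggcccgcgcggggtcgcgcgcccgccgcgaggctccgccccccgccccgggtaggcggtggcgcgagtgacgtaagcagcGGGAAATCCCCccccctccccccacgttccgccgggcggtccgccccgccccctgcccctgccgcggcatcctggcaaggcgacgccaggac

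Nfkb2, chr19:46304487-46304736, plus strand: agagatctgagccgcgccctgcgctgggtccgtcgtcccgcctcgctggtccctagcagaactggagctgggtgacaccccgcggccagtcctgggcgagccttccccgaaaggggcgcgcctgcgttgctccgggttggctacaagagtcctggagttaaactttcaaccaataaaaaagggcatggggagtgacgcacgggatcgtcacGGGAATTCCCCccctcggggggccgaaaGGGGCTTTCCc

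Tnfaip3 carried matches 125 to 116 and 12 to 3 bases upstream of its printed start, Nfkbia 29 to 20 bases upstream, and Rel 2 overlapping matches within 92 to 82 bases upstream. Another annotated Tnfaip3 start (chr10:19011964-19012213, minus strand) held no match. The first Nfkb2 start had overlapping matches within 39 to 29 bases and another 11 to 2 bases upstream, 2 further annotated Nfkb2 starts held 1 match each, and Nfkbie held 1 match 106 to 97 bases upstream (chr17:45555450-45555699, plus strand). A match describes the letters only, and binding was not measured in these cells.

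Tnf, Cd83 and the NF-kB genes were not higher on average in the leukemias than in wild-type T cells. In both phases the mean of each of the 10 genes lay below the wild-type mean, by most for Tnfaip3, Nfkbia and Traf1 in the exponential phase and for Tnfaip3, Rel, Cd83 and Nfkbia in the chronic phase. None of these differences passed the test, which was limma with Benjamini-Hochberg adjustment over 19937 genes at an adjusted p under 0.05 and a fold of at least 1.5. In chronic leukemias 0 of 10 were called against wild type, where 0.456% of all genes were called (91 genes). In exponential leukemias 0 of 10 were called against a background of 0.416% (83 genes). With all 8 leukemias as 1 group 0 of 10 were called, against 0.722% of all genes.

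At an unadjusted p under 0.05, 5 of the 10 genes lay lower in chronic leukemias (Tnfaip3, Cd83, Traf1, Rel and Nfkbia), against 4.8% of all genes. The same count was 3 in exponential leukemias (Tnf, Traf1 and Tnfaip3; background 4.99%) and 4 with all leukemias together (Tnfaip3, Traf1, Tnf and Nfkbia; background 5.1%). After Benjamini-Hochberg adjustment, the methods' t-test called none of the 10 in any of these comparisons. A negative difference was found for 10 of 10 genes in each of the 3 comparisons with wild type, against 50.3% of all genes in chronic, 48.3% in exponential and 48.9% in all leukemias. The median difference of the 10 genes was -0.66 in chronic, -0.35 in exponential and -0.58 in all leukemias on the log2 scale, where the median over all genes was at most 0.0067 in size. The 3 comparisons share the same wild-type arrays, and the genes vary together across arrays, so these counts are not 10 separate observations. The 10 genes were also chosen with earlier results of these data known, so the background shares are no independent test.

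**Figure D1:**
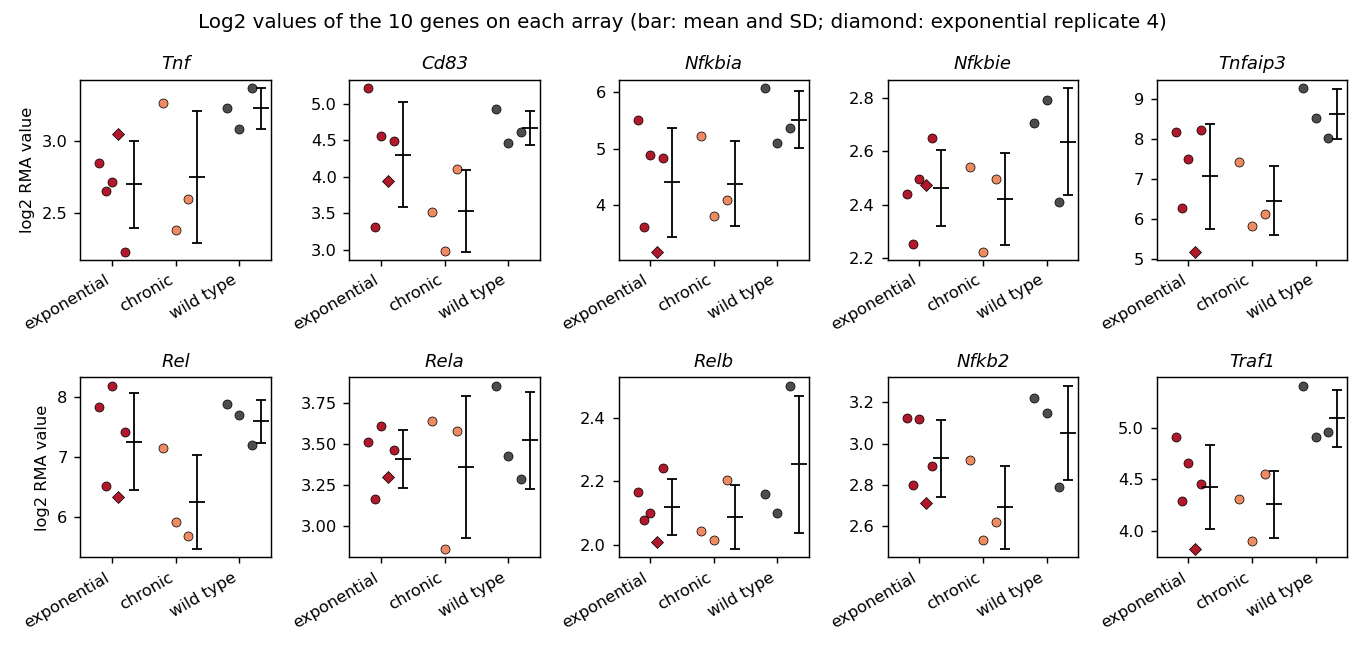
Log2 RMA value (y axis) of each of the 10 genes on every array, by group from left to right: exponential, chronic and wild type. Points are arrays, the diamond is exponential replicate 4, and bars give mean and SD. For Tnfaip3, Rel, Cd83 and Traf1 all 3 chronic arrays sit below all 3 wild-type arrays, and for Tnf all 5 exponential arrays do.

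**Figure D2:**
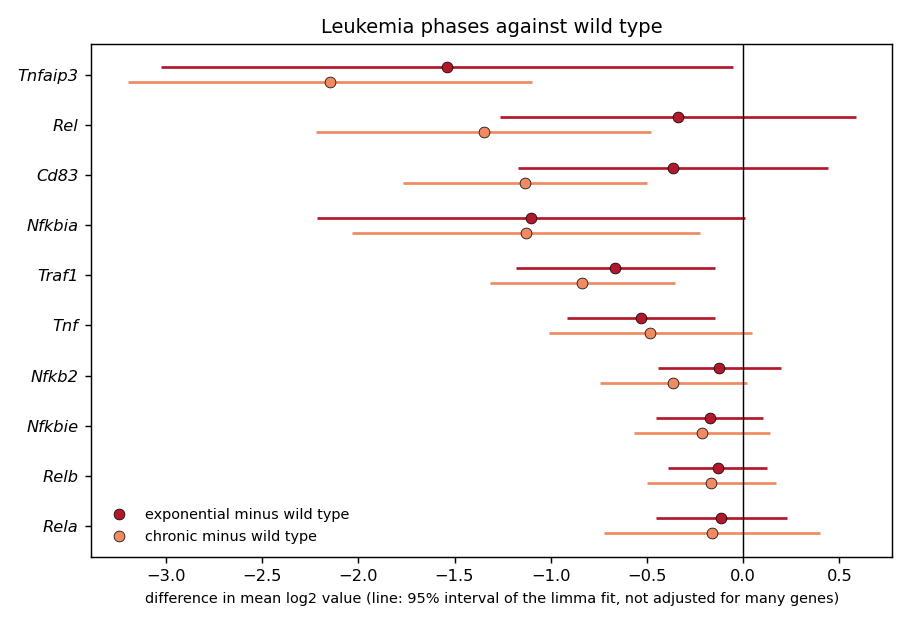
Difference in mean log2 value (x axis) from wild type for each gene, exponential above chronic, with the 95% interval of the limma fit, which is not adjusted for the number of genes. All points lie left of 0, and Tnfaip3 is farthest left in both phases, at -1.54 in exponential and -2.15 in chronic leukemias.

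Tnf encodes the founding cytokine of the TNF superfamily, which activated T cells secrete and which itself switches on NF-kB in responding cells. It read 2.85, 2.66, 2.72, 3.05 and 2.23 in the exponential leukemias, 3.27, 2.38 and 2.60 in the chronic leukemias and 3.23, 3.09 and 3.37 in wild type. All 5 exponential arrays lay below all wild-type arrays, with replicate 4 only just so, whereas chronic replicate 1 lay within the wild-type range. The exponential mean was 2.70 ± 0.30 (SD, n = 5), against 3.23 ± 0.14 in wild type (n = 3), a difference of -0.53 (95% interval -0.92 to -0.15, adjusted p = 0.299). Tnf was the only one of the 10 genes without overlap in this comparison, and 3.5% of all genes were that way and lower.

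Without exponential replicate 4 the Tnf difference was -0.62 (adjusted p = 0.109), and over the omission of each array in turn it lay between -0.62 and -0.41. The chronic mean was 2.75 ± 0.47 (n = 3), at a difference from wild type of -0.48 (95% interval -1.01 to 0.05, adjusted p = 0.508). Both intervals ended below a rise of 1.5-fold over wild type. Tnf values were low, though, and exponential replicate 5 (2.23) lay below the median of all rows of the table (2.30). Whether the Tnf values stood above background was not determined, so this bound holds for the measured values only.

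Cd83 encodes an immunoglobulin-superfamily glycoprotein best known as a marker of mature dendritic cells, which activated T and B cells carry too. Its values were 5.22, 3.31, 4.56, 3.94 and 4.49 in the exponential leukemias, 3.52, 2.99 and 4.10 in the chronic leukemias and 4.93, 4.47 and 4.61 in wild type. Every chronic array lay below every wild-type array, while the exponential arrays spread on both sides, with replicate 1 the highest of all 11 arrays. The chronic mean of 3.54 ± 0.56 stood against 4.67 ± 0.23 in wild type (n = 3 each), a difference of -1.13 (SE 0.27, 95% interval -1.77 to -0.50, adjusted p = 0.161), or 2.19-fold lower. In the exponential phase the mean was 4.30 ± 0.72 (n = 5) and the difference -0.37 (95% interval -1.17 to 0.44, adjusted p = 0.830), or -0.27 without replicate 4. It moved more with other arrays, to -0.12 without exponential replicate 2 and to -0.59 without exponential replicate 1.

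Markers of other cells that carry Cd83 were set beside it. The median over the 9 measured B-cell markers was 3.77, 2.66, 3.68, 2.62 and 3.39 in the exponential leukemias, 2.81, 2.04 and 2.40 in the chronic leukemias and 2.67, 2.49 and 2.92 in wild type. The exponential arrays with the highest B-cell medians (replicates 1, 3 and 5) were also those with the highest Cd83. The chronic arrays did not follow that order: Cd83 was highest on replicate 3 (4.10), while the B-cell median was highest on replicate 1. Wild-type arrays had Cd83 between 4.47 and 4.93 at B-cell medians of 2.49 to 2.92. None of the 9 was called in any comparison. In exponential leukemias 8 of the 9 had a positive difference from wild type (median 0.30), whereas in chronic leukemias, where Cd83 was lower, 7 of the 9 had a negative difference (median -0.15). Over all genes, 48.3% were negative in exponential and 50.3% in chronic leukemias. The median over 8 dendritic-cell markers moved little, between 2.12 and 2.46 in exponential, 2.08 and 2.24 in chronic and 2.01 and 2.24 in wild type. The part of B cells in the Cd83 values was not tested.

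Among the NF-kB subunits, Rel (c-Rel), the subunit that lymphocytes depend on for activation genes such as those of interleukins, differed most. It read 7.84, 6.52, 8.20, 6.34 and 7.41 in the exponential leukemias, 7.15, 5.92 and 5.69 in the chronic leukemias and 7.89, 7.71 and 7.20 in wild type. All chronic arrays were below all wild-type arrays, but chronic replicate 1 only by a small margin, and exponential replicates 2 and 4 lay as low as the chronic range. The chronic mean was 6.25 ± 0.79 against 7.60 ± 0.36 in wild type (n = 3 each), a difference of -1.35 (SE 0.37, 95% interval -2.22 to -0.48, adjusted p = 0.220), or 2.55-fold lower.

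This Rel difference depended on chronic replicate 1: without it the difference was -1.80 and passed the test (adjusted p = 0.0471), whereas without any other single array it lay between -1.55 and -1.06 and did not pass. In exponential leukemias the mean was 7.26 ± 0.81 (n = 5), at a difference from wild type of -0.34 (95% interval -1.26 to 0.59, adjusted p = 0.871). It was -0.11 without replicate 4 and -0.57 without exponential replicate 3.

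Nfkb2 encodes p100, the precursor of p52 that holds RelB in the cytoplasm until the non-canonical pathway processes it. It lay between 2.71 and 3.12 in exponential, 2.53 and 2.92 in chronic and 2.79 and 3.22 in wild-type arrays, with overlap among all groups. The difference from wild type was -0.12 in exponential (adjusted p = 0.863, or -0.069 without replicate 4) and -0.36 in chronic leukemias (95% interval -0.75 to 0.02, adjusted p = 0.478). Rela (p65), the main activating subunit of the canonical pathway, averaged 3.41 ± 0.18 in exponential (n = 5), 3.36 ± 0.43 in chronic (n = 3) and 3.52 ± 0.30 in wild-type arrays (n = 3). Its difference from wild type was -0.11 in exponential (-0.086 without replicate 4) and -0.16 in chronic leukemias (95% interval -0.72 to 0.40), and it changed sign when wild-type replicate 1 was left out.

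Relb, the partner of p52, averaged 2.12 ± 0.09 in exponential, 2.09 ± 0.10 in chronic and 2.25 ± 0.22 in wild-type arrays, and its highest single value was wild-type replicate 3 at 2.50. Its exponential difference was -0.13 (-0.11 without replicate 4). Over the 11 arrays Relb lay between 2.01 and 2.50 and Nfkbie between 2.22 and 2.79, close to the median of all rows of the table (2.30). Whether these values stood above background was not determined, so for both genes a small difference was hardly measurable.

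Of the inhibitors, Nfkbia and Tnfaip3 had the largest SDs of the 10 genes in exponential leukemias, and Nfkbie one of the smaller ones. Nfkbia, which encodes IkB-alpha, the inhibitor that is destroyed and made anew in each round of canonical activation, read 5.50, 3.61, 4.88, 3.19 and 4.83 in the exponential leukemias, 5.22, 3.81 and 4.10 in the chronic leukemias and 6.07, 5.09 and 5.36 in wild type. Of the 8 leukemias, only exponential replicate 1 and chronic replicate 1 reached the wild-type range. The means were 4.40 ± 0.96 in exponential (n = 5), 4.38 ± 0.75 in chronic (n = 3) and 5.51 ± 0.50 in wild-type arrays (n = 3). The difference was -1.10 in exponential (95% interval -2.22 to 0.01, adjusted p = 0.514) and -1.13 in chronic leukemias (95% interval -2.03 to -0.22, adjusted p = 0.327). Without exponential replicate 4, which had the lowest Nfkbia of all arrays, the exponential difference was -0.80.

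Tnfaip3 encodes A20, an enzyme that edits ubiquitin chains on signaling proteins and so shuts off the path from TNF and antigen receptors to IkB kinase. Its values were 8.16, 6.28, 7.50, 5.19 and 8.23 in the exponential leukemias, 7.43, 5.83 and 6.13 in the chronic leukemias and 9.27, 8.53 and 8.03 in wild type. Every chronic array lay below every wild-type array, and of the exponential arrays only replicates 1 and 5 overlapped with wild type. The chronic mean of 6.46 ± 0.85 against 8.61 ± 0.63 in wild type (n = 3 each) gave the largest difference of the 10 genes, -2.15 (SE 0.45, 95% interval -3.20 to -1.10, adjusted p = 0.112), or 4.44-fold lower. It lay between -2.63 and -1.82 when each array was left out in turn.

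In the exponential phase Tnfaip3 averaged 7.07 ± 1.31 (n = 5), with a difference of -1.54 (SE 0.66, 95% interval -3.03 to -0.05, adjusted p = 0.484). Replicate 4 was the lowest of all arrays, and without it the difference was -1.07 (adjusted p = 0.410). Nfkbie, which encodes the related inhibitor IkB-epsilon, averaged 2.46 ± 0.14 in exponential, 2.42 ± 0.17 in chronic and 2.64 ± 0.20 in wild-type arrays. Its groups overlapped, and its differences from wild type were -0.17 in exponential (-0.18 without replicate 4) and -0.22 in chronic leukemias, neither of which passed.

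Traf1, an adaptor that binds TNF receptors together with Traf2 and is itself induced by NF-kB, read 4.91, 4.29, 4.66, 3.82 and 4.45 in the exponential leukemias, 4.31, 3.90 and 4.56 in the chronic leukemias and 5.41, 4.91 and 4.96 in wild type. All chronic arrays and 4 of the 5 exponential arrays lay below wild type, and exponential replicate 1 lay on its lower edge. The chronic mean was 4.26 ± 0.33 against 5.09 ± 0.28 in wild type (n = 3 each), a difference of -0.84 (SE 0.21, 95% interval -1.32 to -0.35, adjusted p = 0.173). The exponential mean was 4.43 ± 0.41 (n = 5), a difference of -0.66 (95% interval -1.18 to -0.15, adjusted p = 0.347), and -0.51 without replicate 4. With all 8 leukemias together Traf1 had the smallest adjusted p of the 10 genes, 0.184, at a difference of -0.73.

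Tnfaip3, Rel, Cd83 and Traf1 were thus the 4 of 10 genes whose chronic arrays all lay below wild type, where 7.52% of all genes did so. With all 8 leukemias together no gene of the 10 was free of overlap, where 1.65% of all genes lay lower without overlap.

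Between the phases none of the 10 genes passed the test. In exponential against chronic leukemias limma called 0 of 10 genes and 0 of 19937 overall (0%), and 0 of the 10 reached an unadjusted p under 0.05, against 1246 of all genes (6.25%). After adjustment, the methods' t-test called none of the 10 either, and for none were the groups free of overlap, as they were for 4.55% of all genes. The largest difference was that of Rel, 1.01 higher in the exponential phase (95% interval -0.07 to 2.09, adjusted p = 0.802), followed by Cd83 with 0.77 (95% interval -0.14 to 1.67, adjusted p = 0.821) and Tnfaip3 with 0.61 (95% interval -0.96 to 2.18, adjusted p = 0.918). For Tnf the difference was -0.05 (95% interval -0.57 to 0.47) and for Nfkbia 0.02 (95% interval -1.18 to 1.23). The chronic mean was the lowest, the exponential mean next and the wild-type mean the highest for 9 of the 10 genes, Tnf being the exception, and none of these steps passed the test.

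Seen array by array, leukemias of the same phase differed among themselves. All 10 genes lay below their wild-type mean on exponential replicates 2 and 4 and on chronic replicate 2, against 7 on exponential replicates 1 and 3. Chronic replicate 2 was the lowest of all 11 arrays for 4 genes and among the lowest 2 for 9, and exponential replicate 4 was the lowest for another 4. Wild-type replicate 1 was the highest of all arrays for 5 genes. The median of the 10 genes relative to wild type was -0.05, -0.69, -0.15, -0.54 and -0.18 on exponential replicates 1 to 5, -0.25, -1.02 and -0.55 on chronic replicates 1 to 3, and 0.27, -0.12 and -0.19 on wild-type replicates 1 to 3.

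Immediate-early genes, such as Fos, Egr1 and Junb, which T cells induce within minutes of stimulation and also during handling of tissue, moved with these genes. The median difference of 18 immediate-early genes from wild type was 0.16, -1.24, -0.42, -1.26 and -0.24 on the exponential arrays, -0.75, -2.32 and -1.17 on the chronic arrays, and 0.30, 0.05 and -0.28 on the wild-type arrays. Their levels as list medians ranged between 4.09 and 5.72 in exponential, 3.10 and 4.74 in chronic and 5.54 and 5.98 in wild type. Of the 18, 16 had a negative difference in exponential leukemias (48.3% of all genes), and 1 was called lower (background 0.281%). In chronic leukemias 18 had a negative difference (50.3% of all genes), and 2 were called lower (background 0.316%). Exponential replicates 2 and 4 and chronic replicate 2 were again the lowest of their groups. The part of cell handling in the values of the NF-kB genes was not tested.

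**Figure D3:**
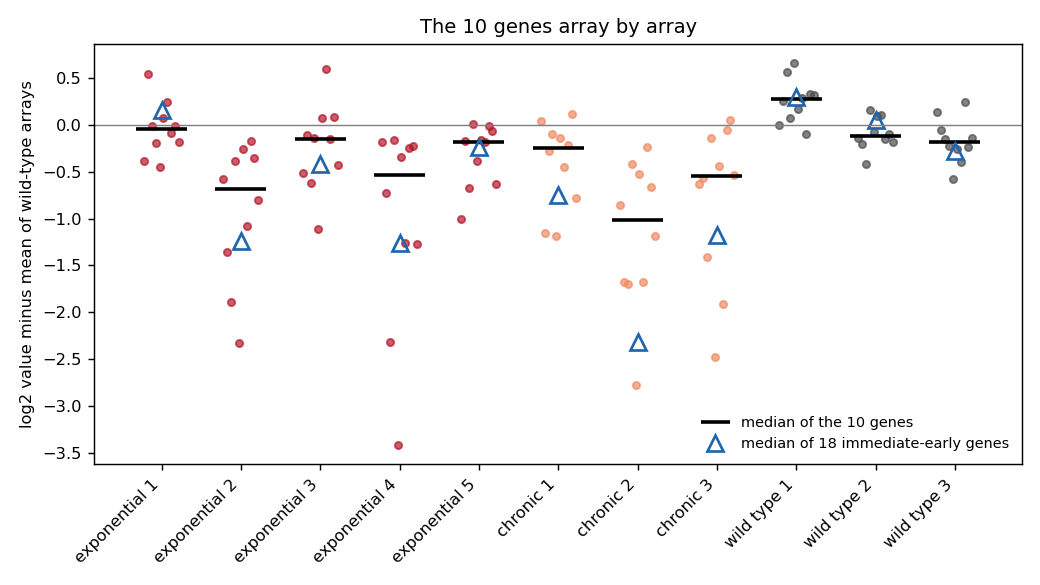
Log2 value minus the mean of the wild-type arrays (y axis) for the 10 genes on each array (x axis). Dots are genes, black lines their median and open triangles the median of 18 immediate-early genes. Chronic replicate 2 has the lowest median of both sets, at -1.02 for the 10 genes and -2.32 for the immediate-early genes.

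Most of the 10 genes ran together over the 11 arrays. Of their 45 pairs all had a positive Pearson correlation, with a median of 0.61 and a range of 0.03 to 0.94, and 15 exceeded 0.7. These are descriptions over arrays that share their group structure and the few low leukemias, so no p is attached. The closest pairs were Nfkbia with Tnfaip3 and Rel with Nfkb2, at 0.94 each, which are the 4 genes whose upstream windows are printed. Tnf, with a median correlation of 0.34 to the other 9, and Relb, with 0.22, ran least with the group.

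Over all 9776 genes above the median level, the genes most like Nfkbia were Tnfaip3 (0.94), the homeobox repressor Tgif1 (0.93), the zinc-finger gene Zfp951 (0.92), the transcription factor Klf4 (0.91) and Ifrd1 (0.91). Cd83 was closest to the glycerophosphodiesterase Gpcpd1 (0.93), S100g, Slc15a4, the B-lymphoid octamer factor Pou2f2 and Pnrc1 (0.91 each). Tnf was closest to the sialyltransferase St6gal1 (0.86), the lipid phosphatase Inpp4b (0.86), Adamts10 (0.80), the T-helper ligand Cd40lg (0.79) and S100a4 (0.79), none of which is among the 10 genes.

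Further genes of the pathway were taken from 8 lists of textbook membership, 92 of whose 100 genes were measured under a symbol of their own. The lists were chosen with earlier results of these data known, so an excess over the background shares below is no independent test. In chronic leukemias 5 of the 92 fell (background 0.316% of all genes) and 1 rose (background 0.14%). In exponential leukemias 6 of 92 fell (background 0.281%) and 0 rose (background 0.135%). With all leukemias together 5 fell (background 0.441%) and 0 rose (background 0.281%). An unadjusted p under 0.05, in either direction, was reached by 27 of the 92 in chronic (11.2% of all genes), 24 in exponential (9.78%) and 22 in all leukemias (10.6%). In exponential against chronic leukemias 0 of 92 were called, and 12 reached an unadjusted p under 0.05, where 6.25% of all genes did. The difference from wild type was negative for 63 of the 92 genes in chronic (50.3% of all genes) and 59 in exponential leukemias (48.3%). Its median was -0.15 in chronic and -0.13 in exponential leukemias.

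The genes called were 3 TNF-family members, 4 NF-kB targets and 1 gene of the list of inhibitors. Cd40lg, the helper T-cell ligand of CD40, read 2.03, 1.77, 1.95, 3.54 and 1.67 in the exponential leukemias, 2.42, 1.63 and 1.64 in the chronic leukemias and 3.94, 4.73 and 4.56 in wild type. It fell in chronic leukemias by 2.52 on the log2 scale (adjusted p = 0.0176), while its exponential difference of -2.22 missed the threshold (adjusted p = 0.0577) and passed without replicate 4 (-2.56, adjusted p = 0.000348). With each array left out in turn, the chronic call was lost in 4 cases and kept in 2. The only leukemia near the wild-type level was exponential replicate 4, the array with Cd4 and without Cd8a.

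Of the TNF receptors, the costimulators Tnfrsf4 (OX40) and Tnfrsf9 (4-1BB) fell in both phases. Tnfrsf4 read 2.12, 2.38, 2.56, 2.51 and 2.71 in the exponential leukemias, 2.67, 2.03 and 2.26 in the chronic leukemias and 3.71, 3.62 and 4.33 in wild type. Its difference was -1.43 in exponential (adjusted p = 0.0161) and -1.56 in chronic leukemias (adjusted p = 0.0452). The highest leukemia, at 2.71, lay below the lowest wild-type array, at 3.62. Tnfrsf9 averaged 2.31 ± 0.22 in exponential (n = 5), 2.22 ± 0.14 in chronic (n = 3) and 3.47 ± 0.15 in wild-type arrays (n = 3), with a difference of -1.16 in exponential (adjusted p = 0.0128) and -1.25 in chronic leukemias (adjusted p = 0.0166). Without exponential replicate 4 the exponential difference was -1.44 for Tnfrsf4 and -1.19 for Tnfrsf9, and both stayed called. Over the omission of each array in turn, the exponential call of Tnfrsf4 was kept in 6 cases and lost in 2. That of Tnfrsf9 was kept in 5 and lost in 3. The chronic call was lost in all 6 cases for Tnfrsf4, and for Tnfrsf9 it was lost in 5 and kept in 1. Of 16 receptors measured, these 2 were the ones called with all arrays.

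Among 26 measured NF-kB targets, the chemokine Cxcl10 and the interleukin-2 receptor chain Il2ra fell in both phases. Cxcl10 read 3.59, 2.36, 3.23, 2.33 and 3.30 in the exponential leukemias, 3.40, 2.26 and 2.71 in the chronic leukemias and 5.60, 5.21 and 4.95 in wild type, and fell by 2.29 in exponential (adjusted p = 0.0183) and by 2.47 in chronic leukemias (adjusted p = 0.0264). Il2ra averaged 2.36 ± 0.30 in exponential (n = 5), 2.28 ± 0.45 in chronic (n = 3) and 4.13 ± 0.35 in wild-type arrays (n = 3), and fell by 1.77 in exponential (adjusted p = 0.0114) and by 1.85 in chronic leukemias (adjusted p = 0.0394). In exponential leukemias alone the test also called Cflar, the caspase-8 inhibitor c-FLIP, at -0.64 (adjusted p = 0.0316), and Ier3, an immediate-early survival gene, at -0.89 (adjusted p = 0.0403). Without exponential replicate 4 all 4 stayed called in the exponential phase, at -2.13 for Cxcl10, -1.70 for Il2ra, -0.65 for Cflar and -0.82 for Ier3. Over the omission of each array in turn, Cflar and Ier3 each kept that call in 1 case and lost it in 7. Cxcl10 kept it in 5 cases and lost it in 3, and Il2ra kept it in 8. In chronic leukemias Cxcl10 kept its call in 3 cases and lost it in 3, and Il2ra kept it in 1 and lost it in 5. In chronic leukemias Cflar differed by -0.47 and Ier3 by -0.41, neither of which passed. The difference between the phases themselves was -0.17 for Cflar (adjusted p = 0.908) and -0.48 for Ier3 (adjusted p = 0.789) in exponential against chronic leukemias.

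Trim13, a membrane-anchored ubiquitin ligase on the list of inhibitors, was the 1 gene that rose: 4.92 ± 0.23 in chronic leukemias against 2.67 ± 0.68 in wild type (n = 3 each), a difference of 2.25 (adjusted p = 0.0394). With each array left out in turn, Trim13 lost this call in 5 cases and kept it in 1. Its exponential values split, with 5.69 and 6.27 on replicates 3 and 5 and 3.44, 3.47 and 3.83 on replicates 1, 2 and 4, and the exponential difference of 1.87 did not pass, with replicate 4 (adjusted p = 0.381) or without it (2.05, adjusted p = 0.242).

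**Figure D4:**
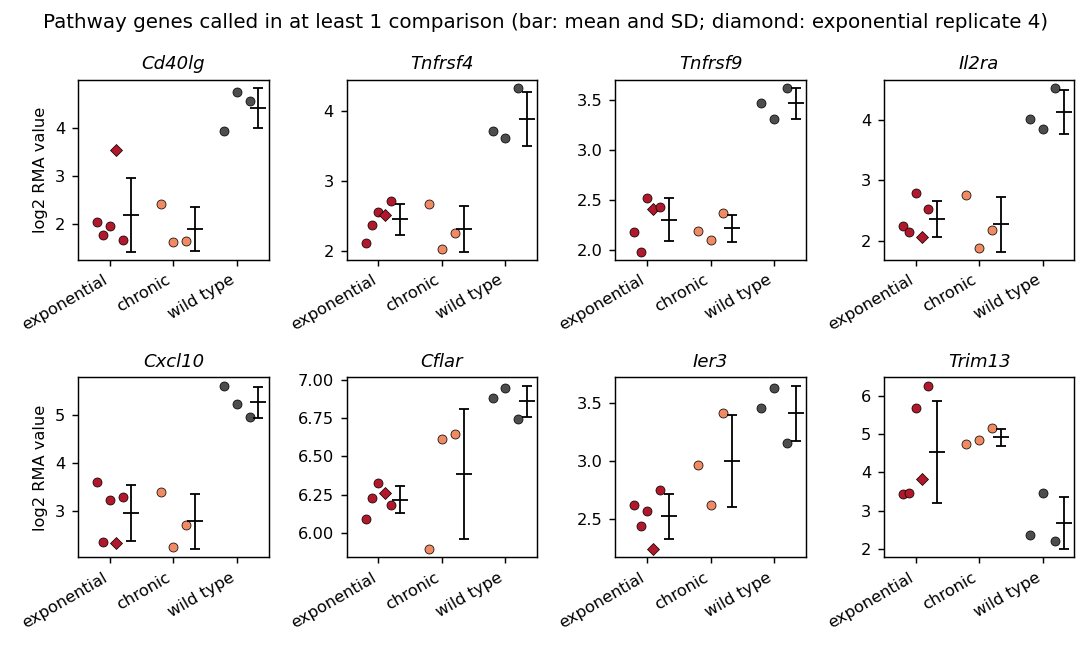
Log2 RMA value (y axis) on every array of the 8 pathway genes called in at least 1 comparison, by group from left to right: exponential, chronic and wild type. Points are arrays, the diamond is exponential replicate 4, and bars give mean and SD. Cd40lg is at 3.54 on exponential replicate 4 and at most 2.42 on the other 7 leukemias.

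Of 3 lists of the signaling core, none held a called gene in any comparison with wild type. The counts were 0 of 5 measured Rel and IkB genes, and 0 of 8 TNF receptor adaptors, TRAFs and cIAPs. For the IkB kinase complex, listed with its upstream kinases and the linear ubiquitin ligase, the count was 0 of 12 measured genes. With at most 0.722% of all genes called, lists of this size hold no call at the background rate either, so these counts do not set the core apart from other genes. Nfkb1, Chuk, Ripk1 and Traf3 were not analysed here. The paracaspase gene Malt1 had 7.11 ± 0.25 in chronic leukemias against 7.98 ± 0.27 in wild type (n = 3 each), a difference of -0.87 that did not pass (adjusted p = 0.117). The kinase adaptor Tab2 differed by -0.64 (adjusted p = 0.329), the IkB-like gene Nfkbil1 by -0.52 (adjusted p = 0.199) and the ubiquitin ligase Birc2 by -0.43 (adjusted p = 0.361), all in chronic leukemias. Bcl3, a nuclear IkB protein, differed by 0.24 in chronic leukemias (adjusted p = 0.542).

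Other TNF-family genes near the threshold were the ligands Tnfsf11 (RANKL), at -1.33 (adjusted p = 0.0787), and Tnfsf8, at -1.23 (adjusted p = 0.186), both in chronic leukemias, and the receptor Tnfrsf18 (GITR), at -0.92 in exponential leukemias (adjusted p = 0.0561). Tnfrsf18 passed without exponential replicate 4 (-0.84, adjusted p = 0.0324), in the joint fit of the 3 groups (adjusted p = 0.0328), after cyclic loess (adjusted p = 0.0386) and with the other variance model (adjusted p = 0.0408), and its adjusted p lay between 0.0324 and 0.258 over 20 alternatives. Of the other inhibitors, the deubiquitinase Otulin differed by 1.30 in exponential leukemias (adjusted p = 0.309), and without exponential replicate 4 by 1.62 (adjusted p = 0.0199).

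The counts of called pathway genes leaned on single arrays. In chronic leukemias the 6 calls were 3 without chronic replicate 1, 1 without chronic replicate 2, 4 without chronic replicate 3, 0 without wild-type replicates 1 or 3 and 1 without wild-type replicate 2. In exponential leukemias the 6 calls were 11 without exponential replicate 4, the 6 together with Cd40lg, Tnfrsf18, Tnfsf11, Otulin and the adhesion molecule Vcam1, and 4 without any other exponential array, and 1, 1 and 2 without wild-type replicates 1, 2 and 3. Calls over all genes moved with the same arrays. The 91 chronic calls over all genes were 40, 45 and 108 without chronic replicates 1, 2 and 3. They were 8, 14 and 18 without wild-type replicates 1, 2 and 3. The 83 exponential calls over all genes were 221 without exponential replicate 4 and 36 to 61 without any other exponential array. Without wild-type replicates 1, 2 and 3 they were 32, 16 and 26. With all leukemias together, Cxcl10, Il2ra, Tnfrsf4 and Tnfrsf9 stayed called in each of the 23 alternatives.

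CD4 T-cell markers were also lower in the leukemias, but some of them are the called genes themselves. Cd40lg, Il2ra and Tnfrsf4 are also members of the list of 8 CD4 helper and regulatory T-cell markers, whose median lay between 2.38 and 3.70 in exponential leukemias, 2.11 and 2.64 in chronic leukemias and 3.98 and 4.54 in wild type. In chronic leukemias 7 of the 8 were called lower than wild type (background 0.316% of all genes), with Cd40lg, Il2ra and Tnfrsf4 among them. In exponential leukemias 2 of 8 were called lower (background 0.281%), and these were Il2ra and Tnfrsf4 themselves. On exponential replicate 4, where Cd4 read 5.18, Cd40lg read 3.54, Il2ra 2.07 and Tnfrsf4 2.51. The lowest wild-type arrays read 3.94, 3.84 and 3.62 for these 3 genes. The leukemias were enriched for CD8+ cells and wild-type cells were not, so a lower share of CD4 cells and lower expression per cell cannot be told apart for these genes.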

How the data were processed

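The deposited table holds log2 values that the authors made from 11 Affymetrix arrays by RMA background correction and quantile normalization of all arrays together, using the affy package for R (version not given in the sources used here). The log base was read from the values, which run between 0.77 and 13.5 with equal quantiles on every array. Quantile normalization removes any shift common to all genes. Arrays carry no counts, so their number limits the precision.

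Of 34760 rows, 21640 carried 1 gene symbol of the platform annotation, 1321 several and 11799 none. Rows with several symbols or none were left out, and a gene with several rows was represented by its brightest row on average, which gave 19937 genes. Exponential (n = 5), chronic (n = 3) and wild-type arrays (n = 3) were grouped by their labels, and each pair of groups was fitted on its own, as was the set of all 8 leukemias against wild type, with limma 3.58.1 (R 4.3.3), lmFit and default eBayes. P-values were adjusted over all genes (Benjamini-Hochberg), with a call at an adjusted p under 0.05 and a fold of at least 1.5. The methods' t-test was run as an alternative.

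On simulated data for 19937 genes, 100 of them changed by each fold, the procedure called 67% of 2-fold and 92% of 4-fold changes in chronic against wild type, 78% and 96% in exponential against wild type, 73% and 96% in exponential against chronic, and 81% and 97% in all leukemias against wild type. False calls in the same order were 10 of 169, 12 of 186, 9 of 178 and 3 of 181. The changed genes were drawn at random and given independent normal noise. The shares are averages over such genes and do not give the chance of a call for the 10 genes, which vary together.

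The 10 genes and all pathway and marker lists were chosen with earlier results of these data known. Named beside the 10 were the pathway genes called in any comparison, up to 3 genes per list with the smallest p against wild type, and for Tnf, Cd83 and Nfkbia the 5 genes with the highest Pearson correlation. Alternatives were a joint fit of the 3 groups, a block for the replicate number, omission of the dimmest 30% of genes, another variance model, cyclic loess, median centring, array weights, averaging of a gene's rows, a test of every row of the table, no fold threshold, and omission of each array in turn. Upstream windows were RefSeq sequence of GRCm38.p6, matched by gene symbol.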

Additional observations from a re-analysis of the deposited data

Results flagged for a closer look

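Of 35 sets of exponential arrays and genes examined for 1 array far from the others, 2 stood out by Dixon's criterion, which by chance picks out about 1 set in 20. Cd40lg was 3.54 on exponential replicate 4, against 1.67 to 2.03 on the other exponential arrays. Bcl3 was 2.02 on exponential replicate 2, against 2.30 to 2.39 on the others.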

How the results depend on the processing

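Of 810 values of the 10 genes under alternatives, 783 kept their direction and their side of the threshold, 10 became called and 17 changed sign. Only the replicate block, cyclic loess, array weights and the omission of arrays could change a difference of these genes. The other settings kept the difference and could change only its error, its adjusted p or the threshold, so the direction was fixed there. Median centring repeated the main fit, as the array medians were equal. In chronic against wild type 2 of the 10 genes were called with the replicate block (Nfkbia, adjusted p = 0.0462, and Tnfaip3, adjusted p = 0.0282), 3 by the methods' t-test at an unadjusted p (Cd83, Tnfaip3 and Traf1), and 0 to 1 with single arrays left out. In all leukemias against wild type 2 were called with the block (Nfkbia, adjusted p = 0.0465, and Tnfaip3, adjusted p = 0.0470) and 2 by the unadjusted t-test. Over all 19937 genes the unadjusted t-test called 623 in chronic, 477 in exponential and 543 in all leukemias against wild type. In exponential against chronic it called 123 of all genes. The labels give no pairing by replicate number. After removal of group means, same-numbered arrays correlated at -0.04 to 0.18 and differently numbered arrays at -0.23 to 0.10. The highest was chronic replicate 1 with wild-type replicate 1, whereas chronic replicate 2 ran closest to wild-type replicate 3 among the wild-type arrays. Whether arrays of the same number share a source of variation was not settled, and the block rests on that assumption. Exponential replicates 4 and 5 had no same-numbered array in the other groups, so they added nothing to a difference fitted with the block. Block values that involve exponential leukemias thus rest on exponential replicates 1 to 3 and leave out replicate 4 with its low Cd8a. With the block, calls over all genes went to 110 in chronic (91 without), 139 in exponential (83 without) and 264 in all leukemias (144 without). Called pathway genes in chronic against wild type were 0 with all rows of the table, 0 by the adjusted and 10 by the unadjusted t-test, and 0 to 4 with single arrays left out. In exponential against wild type they were 3, 0 and 15 under the same settings, and 1 to 11 with single arrays left out. The unadjusted t-test called 4 pathway genes in exponential against chronic and 14 in all leukemias against wild type. Over all genes, the test of every row called 0 in chronic and 28 in exponential leukemias against wild type. The adjusted t-test called 0 and 4 of all genes there. The cause of these shifts was not tested. Signs turned for small differences. With single arrays left out, Rela ran between -0.30 and 0.086 in chronic (0.0028 without wild-type replicate 1), -0.23 and 0.053 in exponential and -0.25 and 0.034 in all leukemias against wild type. In exponential against chronic, the differences then lay between -0.236 and 0.211 for Tnf, -0.26 and 0.448 for Nfkbia, -0.0574 and 0.102 for Nfkbie (-0.0247 with the replicate block), -0.0039 and 0.0896 for Relb, -0.20 and 0.191 for Rela, and -0.0047 and 0.323 for Traf1. Calls over all genes lay between 8 and 108 in chronic and 16 and 221 in exponential against wild type when single arrays were left out. Relb and Nfkbie lay near the median of all rows, where small changes are hard to measure.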
